A study of Mus musculus with 15 samples.

Results

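The miR-30 family was followed through mouse liver grafts that survived without immunosuppression. The members were the 5 guide strands that the arrays name mmu-miR-30a, mmu-miR-30b, mmu-miR-30c, mmu-miR-30d and mmu-miR-30e, taken by name from the 567 mouse miRNAs on the array. A guide strand is the arm of the hairpin that is mostly kept to direct silencing, and the array names mark the other arm with a star. All 5 were detected on 15 of 15 arrays and were among the 103 mouse miRNAs that could be tested.

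Each of 15 male mice gave 1 liver graft and 1 Agilent 1-color miRNA array, in 5 groups of 3. Allogeneic grafts were B10.BR (H2-Kk) livers placed in B10.D2 (H2-Kd) recipients and removed on day 5, day 8, day 14 or day 100. The other group was syngeneic grafts of day 5. The labels give the allogeneic pair of strains for these 3 arrays as well, so their titles were the source of the syngeneic group, and their strain and the age of the mice are not given in the sources used here. With no later syngeneic graft, the day and the type of graft cannot be told apart in the comparisons of day 8, day 14 and day 100, and all 4 comparisons share the same 3 control arrays. The whole graft was extracted, so fewer cells of a type and less miRNA per cell cannot be told apart either.

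Members of a miRNA family share the seed, the bases near the 5′ end that pair with target messenger RNAs, so they can repress overlapping sets of targets. The miR-30 family is known from epithelial cells and hepatocytes, where it holds back the transition to a mesenchymal state through targets such as Snai1. It has also been tied to formation of the bile ducts, to autophagy through Becn1 and to the matrix factor CTGF.

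The guide strands are printed here because their shared seed and their few differing bases define the members. Sequences of 3 of the 5 matched by name in the RefSeq table used here (build GRCm38.p6), and the 7 bases from position 2 to position 8, the seed, are in capitals.
miR-30a: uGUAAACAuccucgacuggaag
miR-30c: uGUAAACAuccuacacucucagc
miR-30e: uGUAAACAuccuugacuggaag
These 3 had one seed, and miR-384-5p was the only other of the 1679 mature mouse miRNAs in the table with it. The table had no entry named miR-30b-5p or miR-30d-5p, so this search does not say whether those members have the seed. Counted from the 5′ end, miR-30a and miR-30e differed at 1 base, C13U. MiR-30a and miR-30c differed at 5 of 22 positions (C13A, G14C, G18C, G19U and A20C), and miR-30c was 1 base longer. The array probes of miR-30a and miR-30e therefore had nearly the same targets, and how much signal one took from the other was not tested.

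The genes lie in pairs. Mir30a (guide strand at chr1:23272274-23272295, plus strand) lies 19.4 kb from Mir30c-2 (chr1:23291714-23291736, plus strand). Mir30e (chr4:120772660-120772681, minus strand) lies 3.0 kb from Mir30c-1 (chr4:120769584-120769606, minus strand). Both miR-30c genes give the same guide strand, so the array measured their sum.

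With arrays scaled to the 75th percentile, miR-30a was lower than in syngeneic grafts on all 4 days, by 1.49-fold to 1.77-fold, and miR-30e was lower by 1.98-fold to 2.49-fold on day 8, day 14 and day 100. MiR-30c was called lower on day 14, while miR-30b and miR-30d passed the test on no day. These calls depended on the scaling. Without scaling none of them passed, and the log2 fold changes of miR-30a were -0.04, -0.13, -0.05 and -0.10. With the total signal of the tested miRNAs as the scale, miR-30a stood at -0.26 on day 5 and turned to 0.039, 0.056 and 0.19 on the later days. The day 100 call of miR-30e was also lost with the slide in the fit (adjusted p = 0.0693) and with the percentile over all mouse miRNAs (adjusted p = 0.0706). It was lost too without the detection filter (adjusted p = 0.0905), with only the groups compared (adjusted p = 0.0996) and with the methods' t-test after adjustment. That of miR-30c on day 14 was lost with the slide (adjusted p = 0.0913), with the replicate number as a block (adjusted p = 0.0571), with the median as the scale (adjusted p = 0.0557) and in 5 of the 15 fits that left out 1 array, and its value turned to 0.29 without scaling. Levels are given as scaled signal, the array's signal for the miRNA divided by the 75th percentile of the 52 miRNAs detected on all arrays, and differences as log2 fold changes with their standard error (SE). Adjusted p-values are from limma with the Benjamini-Hochberg method over all 103 miRNAs, with a threshold of 0.05.

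**Figure D1:**
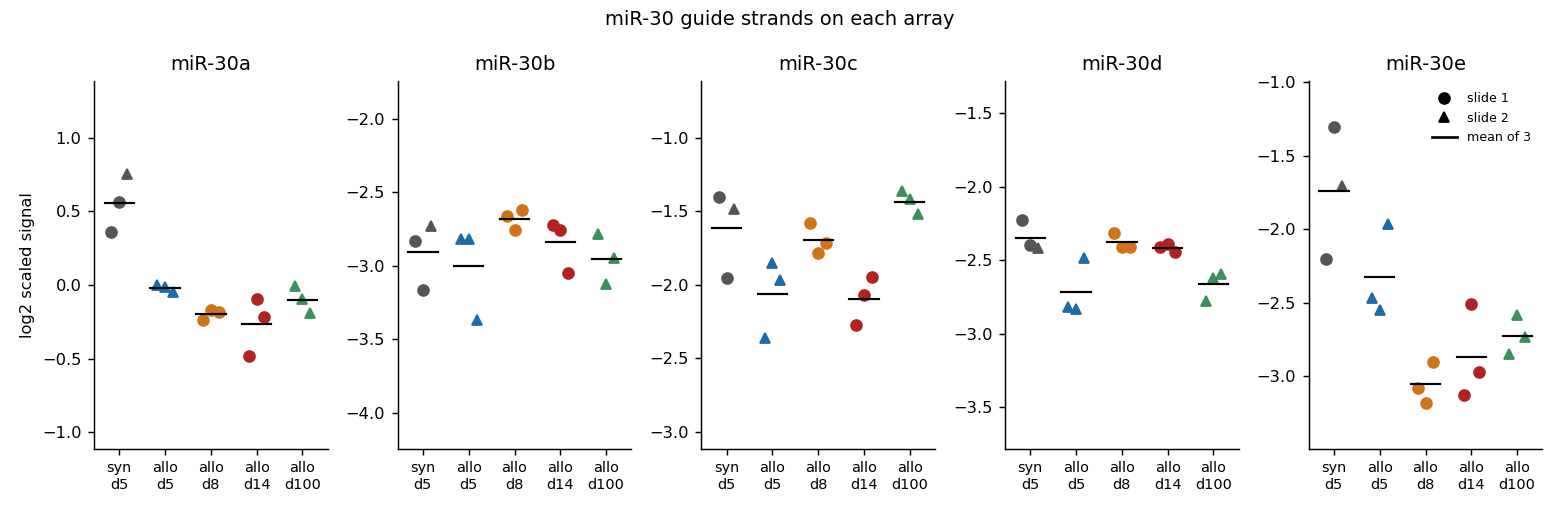
Log2 scaled signal of each miR-30 guide strand (1 panel each) on the 15 arrays by group; circles are slide 1, triangles slide 2 and lines the mean of 3 arrays, and each panel spans the same height. The 12 allogeneic arrays all lie under the 3 syngeneic arrays for miR-30a, and miR-30c is as high on day 100 as in the syngeneic grafts.

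A moderated F test for any difference among the 5 groups passed for 3 of 5 members, against 64.1% of all miRNAs tested. The adjusted p was 0.00219 for miR-30a, 0.00309 for miR-30e, 0.0198 for miR-30c, 0.0550 for miR-30d and 0.477 for miR-30b. In the comparison with syngeneic grafts, 1 of 5 members was called lower on day 5 and none higher, where 6.8% of the miRNAs tested were called lower. On day 8, 2 of 5 were called lower, against a background of 17.5%. On day 14 the count was 3 of 5, against 18.4%, and on day 100 it was 2 of 5, against 14.6%. The median log2 fold change of the 5 members was -0.45, -0.08, -0.48 and -0.32 on the 4 days in turn, where the medians over all 103 miRNAs were 0.12, 0.14, 0.07 and 0. Of all miRNAs tested, 18.4%, 23.3%, 27.2% and 16.5% were called higher on these days. The 3 allogeneic and the 3 syngeneic arrays did not overlap, in either direction, for 30.1%, 51.5%, 54.4% and 29.1% of them.

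MiR-30a, known for repressing Becn1 and thereby autophagy, was lower than in the controls at every time on this scale. Its scaled signal in the syngeneic grafts was 1.28, 1.48 and 1.69. On day 5 the allografts had 1.00, 0.990 and 0.967, and on day 8 they had 0.846, 0.891 and 0.881. On day 14 the values were 0.717, 0.938 and 0.858, and on day 100 they were 0.993, 0.935 and 0.875. No allogeneic array reached the lowest syngeneic one. Day by day, arrays did not overlap the syngeneic ones, in either direction, for 30.1%, 51.5%, 54.4% and 29.1% of all miRNAs tested. The log2 level of miR-30a was 0.56 ± 0.20 (SD, n = 3) in syngeneic grafts and lay between -0.26 and -0.02 in the allogeneic groups.

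The log2 fold change of miR-30a over syngeneic grafts was -0.58 (SE 0.14, adjusted p = 0.00880) on day 5 and -0.76 (adjusted p = 0.000993) on day 8. Day 14 had -0.82 (adjusted p = 0.000337) and day 100 had -0.66 (adjusted p = 0.00675), with the same SE. The order from high to low was syngeneic, day 5, day 100, day 8 and day 14. The allogeneic days that were compared did not pass the test, with adjusted p = 0.721 for day 5 over day 100, 0.356 for day 14 over day 100 and 0.800 for day 14 over day 8. The interval of the day 14 over day 8 difference ran from -0.37 to 0.23.

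Arrays of 2 slides were used. Slide 1 held syngeneic replicates 1 and 2 with the allografts of day 8 and day 14, and slide 2 held syngeneic replicate 3 with those of day 5 and day 100. The differences of day 5 and day 100 within slide 2 therefore rest on 1 syngeneic array. That array had the highest scaled signal of miR-30a among the controls (1.69). With the slide in the fit, which here equals the difference within each slide, the log2 fold changes of miR-30a were -0.78, -0.66, -0.73 and -0.85 in the order of the days, and it passed the test on all 4 days (adjusted p from 0.000984 to 0.0193). It also passed on all 4 days whichever single array was left out. With the 75th percentile over all mouse miRNAs as the scale, its calls of day 5 (-0.56, adjusted p = 0.217) and day 100 (-0.54, adjusted p = 0.161) were lost.

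MiR-30e, which differs from miR-30a at a single base, had the largest log2 fold changes of the family on this scale. Its scaled signal in the syngeneic grafts was 0.217, 0.405 and 0.307, with an SD of 0.45 on the log2 scale. On day 5 it was 0.181, 0.171 and 0.256, which overlapped the syngeneic range. Day 8 had 0.118, 0.110 and 0.134, day 14 had 0.115, 0.176 and 0.127, and day 100 had 0.139, 0.167 and 0.150. All 9 of these later arrays lay under the lowest syngeneic array. On day 8, day 14 and day 100 the arrays did not overlap the syngeneic ones, in either direction, for 51.5%, 54.4% and 29.1% of all miRNAs tested.

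The log2 fold change of miR-30e was -0.59 (SE 0.24, adjusted p = 0.0863) on day 5. The later days had -1.32 (day 8, adjusted p = 0.000993), -1.13 (day 14, adjusted p = 0.00171) and -0.98 (day 100, adjusted p = 0.0113). The order from high to low was syngeneic, day 5, day 100, day 14 and day 8. The difference between day 5 and day 100 was 0.40 with adjusted p = 0.237, although the 3 arrays of day 5 all lay above those of day 100. Arrays of these days did not overlap, in either direction, for 46.6% of all miRNAs tested. Within slides the fold changes were -0.62, -1.30, -1.11 and -1.02 in the order of the days. With the slide in the fit the calls of day 8 and day 14 held, and that of day 100 did not (adjusted p = 0.0693).

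**Figure D2:**
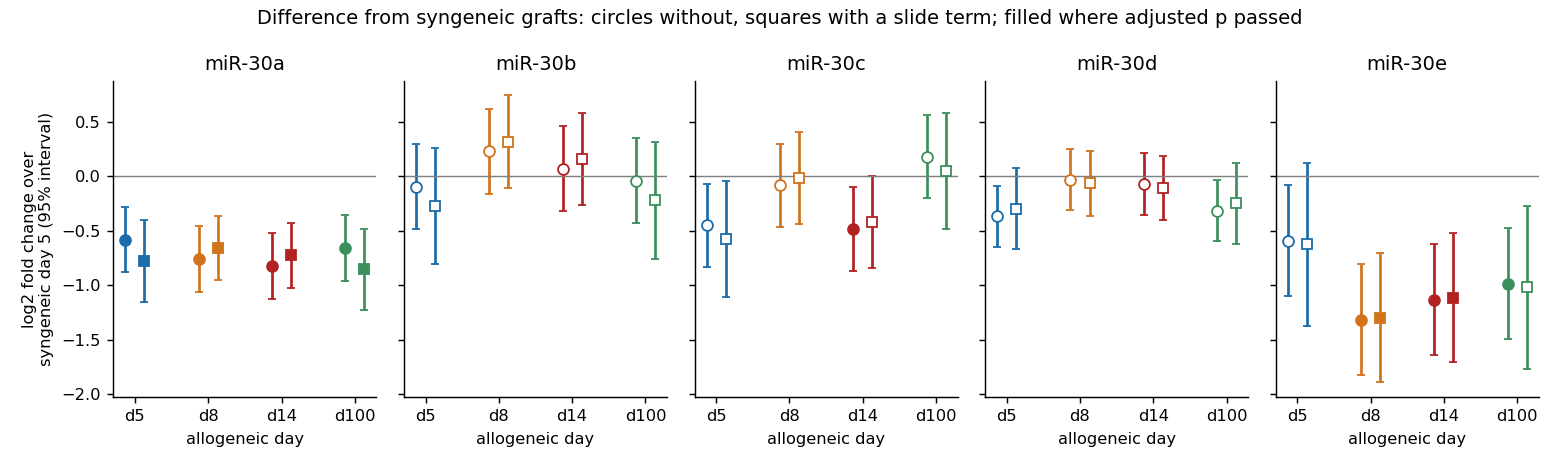
Log2 fold change over the syngeneic grafts with its 95% interval for each member (panel) and allogeneic day; circles are without and squares with a slide term, filled where the adjusted p was under 0.05. MiR-30a is filled in all 8 fits, miR-30e in 5 of 8, miR-30c in 1 and the other 2 members in none.

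MiR-30c, known for repressing CTGF and the lipid transfer protein that loads lipoproteins in hepatocytes, had another course. Its scaled signal in the syngeneic grafts was 0.378, 0.258 and 0.357. It was 0.194, 0.276 and 0.256 on day 5 and 0.334, 0.291 and 0.304 on day 8. On day 14 it was 0.207, 0.238 and 0.259, and on day 100 it was 0.388, 0.374 and 0.348. The arrays of day 5 and day 14 lay low, with syngeneic replicate 2 among them, and those of day 100 lay with the other 2 syngeneic arrays.

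Over the syngeneic grafts the log2 fold change of miR-30c was -0.45 (SE 0.18, adjusted p = 0.0824) on day 5 and -0.08 (adjusted p = 0.812) on day 8. Day 14 had -0.48 (adjusted p = 0.0381) and day 100 had 0.18 (adjusted p = 0.454). The call on day 14 was the only one, and its arrays overlapped the controls. It was lost with the slide in the fit (-0.42, adjusted p = 0.0913), and without syngeneic replicate 1 (-0.38, adjusted p = 0.133), syngeneic replicate 3 (-0.42, adjusted p = 0.0913), day 8 replicate 3 (-0.48, adjusted p = 0.0524), day 14 replicate 1 (-0.40, adjusted p = 0.144) or day 14 replicate 2 (-0.50, adjusted p = 0.0757).

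The pairs of allogeneic days compared were day 14 with day 8, day 14 with day 100 and day 5 with day 100. MiR-30c was the only member called in any of them. The other pairs of allogeneic days were not tested. Among these was day 5 with day 8, where miR-30e had a mean log2 level of -2.33 on day 5 and -3.05 on day 8. In day 14 over day 100, 1 of 5 members was called lower, where 18.4% of all miRNAs tested were. This was miR-30c, with a log2 fold change of -0.66 (SE 0.18, adjusted p = 0.00868), and its arrays did not overlap, as for 65% of all miRNAs tested. The 2 days lie on different slides, and with the slide in the fit, which links them through the syngeneic arrays, the value was -0.47 (adjusted p = 0.364). In day 5 over day 100, whose arrays share slide 2, 1 of 5 members was called lower, against 7.77% of all miRNAs. This was miR-30c again, at -0.63 (SE 0.18, adjusted p = 0.0190), and its arrays did not overlap, as for 46.6% of all miRNAs tested. With the slide in the fit its adjusted p was 0.0154. Without day 100 replicate 1 the value was -0.59 (adjusted p = 0.0532), and without day 5 replicate 1 it was -0.48 (adjusted p = 0.0808).

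In day 14 over day 8, 0 of 5 members were called, against 5.83% of all miRNAs in either direction. At an unadjusted p under 0.05 the count in this comparison was 1, and the methods' t-test without adjustment also gave 1. Both were miR-30c, whose log2 fold change was -0.40 (adjusted p = 0.206 in limma) with the 3 arrays of day 14 under the 3 of day 8. Arrays of these days did not overlap, in either direction, for 46.6% of all miRNAs tested.

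MiR-30d, which with miR-30b is known for targeting the glycosyltransferase GALNT7, passed no comparison. Its scaled signal was 0.213, 0.190 and 0.187 in the syngeneic grafts. It was 0.142, 0.140 and 0.179 on day 5, and 0.146, 0.163 and 0.166 on day 100, under every syngeneic array on both days. Of all miRNAs tested, 30.1% and 29.1% did not overlap the syngeneic arrays, in either direction, on these days. On day 8 the scaled signal of miR-30d was 0.201, 0.188 and 0.188 and on day 14 it was 0.188, 0.191 and 0.183, within or next to the syngeneic range. The log2 fold change was -0.37 (interval from -0.65 to -0.09, adjusted p = 0.0546) on day 5 and -0.32 (interval from -0.60 to -0.04, adjusted p = 0.0744) on day 100. On day 8 it was -0.03 (adjusted p = 0.911) and on day 14 it was -0.07 (adjusted p = 0.694). The low days were those of slide 2, and within slide 2, against its 1 syngeneic array, the differences were -0.30 and -0.25.

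MiR-30b did not separate from the controls on any day. Its scaled signal was 0.140, 0.112 and 0.151 in the syngeneic grafts, 0.141, 0.141 and 0.0967 on day 5 and 0.158, 0.148 and 0.163 on day 8. It was 0.151, 0.148 and 0.121 on day 14 and 0.145, 0.115 and 0.130 on day 100. The arrays of every allogeneic day overlapped those of the syngeneic grafts. Its log2 fold changes over the syngeneic grafts were -0.09, 0.23, 0.07 and -0.04 in the order of the days, with adjusted p from 0.373 to 0.908. The interval of the day 8 value reached from -0.16 to 0.62.

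Most members were read by several probes, and their probes moved together. MiR-30a had 3 probes, which carried 57.2%, 32.1% and 10.7% of its signal, and all were lower on all 4 days, with log2 differences between -0.50 and -1.0. MiR-30c, miR-30d and miR-30e had 2 probes each that were detected, with the same sign on every day. The fainter probes of miR-30c and miR-30e were detected on 13 of 15 arrays each. That of miR-30e, with 18.0% of the signal, averaged -5.21 on day 8, the lowest log2 value allowed here, so its differences are limited by that floor. On day 100 the 2 probes of miR-30c were higher than in syngeneic grafts by 0.17 and 0.22. MiR-30b rested on 1 probe, since its other was detected on 0 of 15 arrays.

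**Figure D3:**
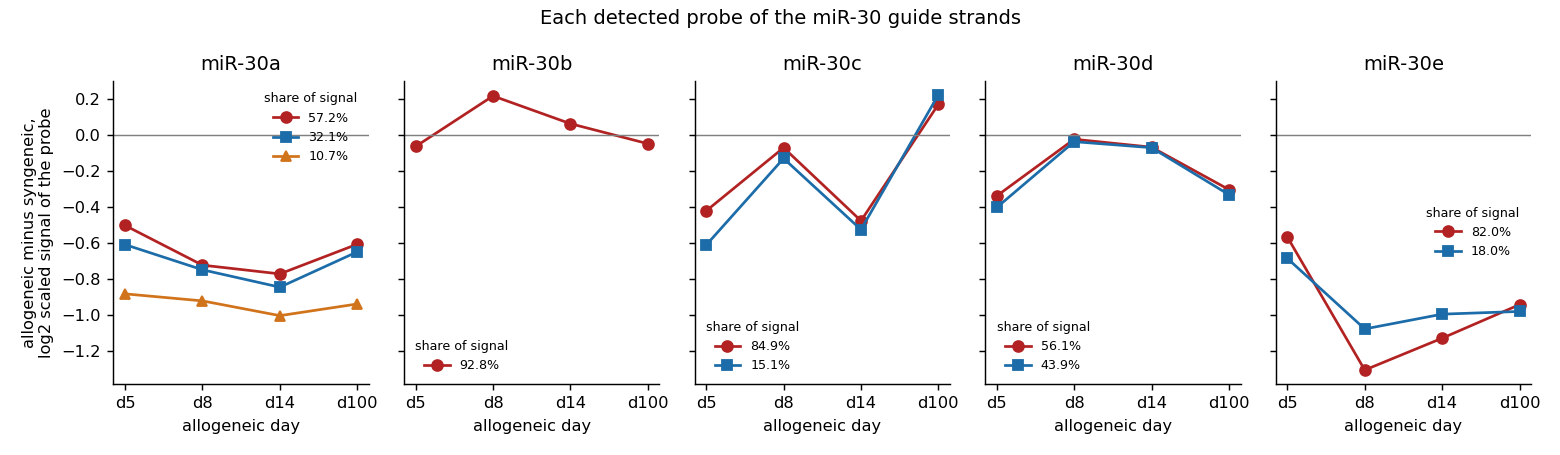
Log2 scaled signal of each detected probe, allogeneic mean minus syngeneic mean, by day for the 5 members (panels); the legend gives the probe's share of the member's signal. The 3 probes of miR-30a stay below 0 on every day, and the 2 probes of miR-30c share its low values on day 5 and day 14.

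The star strands come from the other arm of the same hairpins, so they are a further reading of each gene. The array held 5 of them and miR-384-5p. MiR-30a* and miR-30e* were detected on 14 of 15 arrays each and were tested. Their sequences from RefSeq differ at 1 base, G18A.
miR-30a*: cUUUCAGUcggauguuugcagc
miR-30e*: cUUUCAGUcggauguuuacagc
MiR-30b*, miR-30c-1*, miR-30c-2* and miR-384-5p were detected on 0 arrays, so they were not tested. The log2 fold changes of miR-30a* were -0.23, -0.25, -0.61 and -0.23 in the order of the days, with SE 0.29 and adjusted p = 0.103 on day 14. Those of miR-30e* were -0.22, -0.29, -0.62 and -0.31, with SE 0.32 and adjusted p = 0.130 on day 14. Neither passed in any comparison. Both were faint, and the SE was about as large as the difference on the other days.

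The ratio of 2 members on the same array does not depend on the scaling of the array by a common factor. All 10 pairs were compared between the 12 allogeneic and 3 syngeneic arrays with an exact two-sided permutation test (455 assignments, smallest p 0.00220). After Benjamini-Hochberg adjustment over the 10 pairs 1 passed, and 6 had an unadjusted p under 0.05. The log2 ratio of miR-30a over miR-30b fell by 0.75, from 3.47 ± 0.27 (SD, n = 3) to 2.72 ± 0.29 (SD, n = 12), with p = 0.00440 and adjusted p = 0.0440 in the exact permutation test. The difference was -0.93 within slide 1 and -0.57 within slide 2, which held 1 syngeneic array. With 1 array left out the difference lay between -0.62 and -0.88. Fewer assignments then remain (364 without an allogeneic and 91 without a syngeneic array, with a smallest p of 0.00275 and 0.0110). The adjusted p was 0.0549 without any 1 array of day 8, day 14 or day 100, where 2 assignments gave a difference this large, as with all arrays. It was 0.220 without syngeneic replicate 2 and 0.110 without syngeneic replicate 3, and 1 pair alone cannot go below 0.110 with 2 syngeneic arrays.

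The other pairs of a member that was called on 3 or 4 days with one that was not gave differences in the same direction without passing. The ratio of miR-30b over miR-30e was higher in the allografts by 1.05 (adjusted p = 0.0549), that of miR-30d over miR-30e by 0.81 (adjusted p = 0.0549) and that of miR-30c over miR-30e by 0.80 (adjusted p = 0.0659), all by the exact permutation test. MiR-30a over miR-30d differed by -0.51 (adjusted p = 0.0549) and miR-30a over miR-30c by -0.50 (adjusted p = 0.0659). MiR-30a over miR-30e, the pair with the most similar sequences, differed by 0.30 (adjusted p = 0.176). MiR-30c over miR-30d differed by -0.013 (adjusted p = 0.949), but its arrays spread by day, from 0.14 to 0.50 on day 14 and from 1.07 to 1.41 on day 100.

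**Figure D4:**
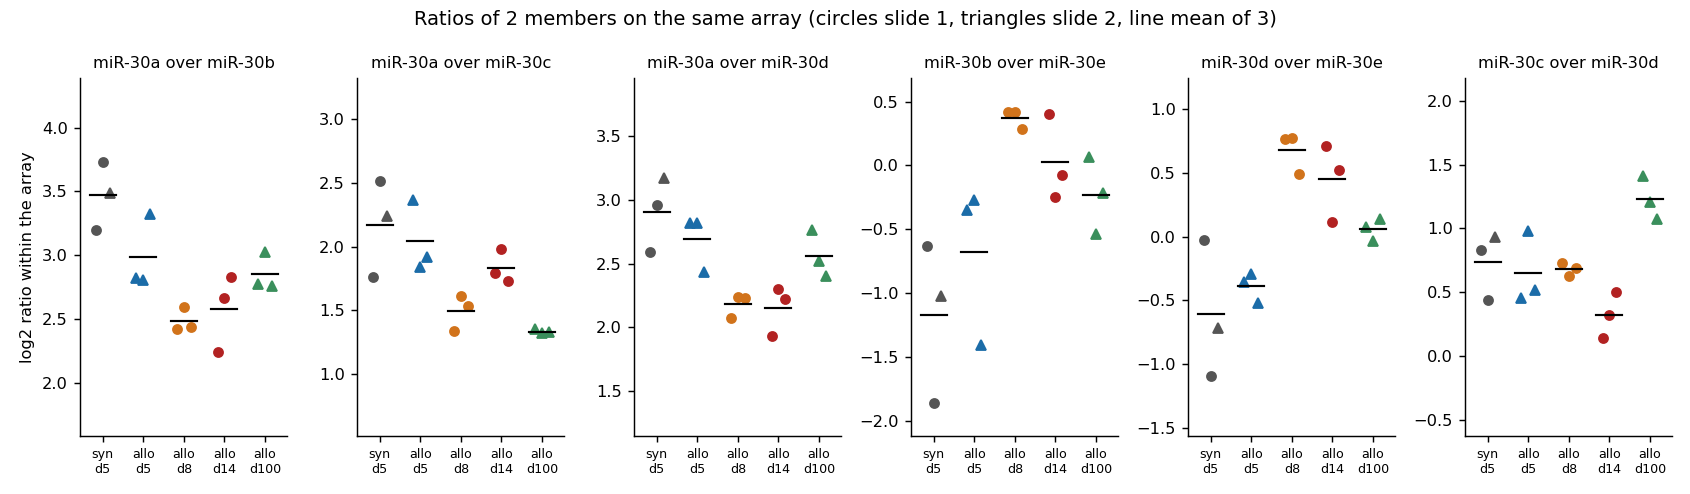
Log2 ratio of 2 members on the same array for 6 of the 10 pairs, by group; circles are slide 1, triangles slide 2 and lines the mean of 3 arrays. The ratio of miR-30a over miR-30b averages 3.47 in the syngeneic group and 2.72 over the allografts, and that of miR-30c over miR-30d is higher on day 100 than on day 14.

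Likeness of profiles was measured as the root mean square difference between 2 miRNAs over the 15 arrays, each centered on its own mean log2 scaled signal. This is a description, since all profiles share the arrays and their scaling. The 10 pairs of members had a median of 0.362 (from 0.258 to 0.653), where all 5253 pairs of tested miRNAs had a median of 0.642. MiR-30b and miR-30d were the closest members, and miR-30b and miR-30e the farthest apart. The 3 nearest miRNAs outside the family were miR-29c (0.134), miR-192 (0.198) and miR-194 (0.204) for miR-30a, and miR-29b (0.260), miR-193 (0.264) and miR-101a (0.276) for miR-30e. They were let-7b (0.197), let-7c (0.208) and let-7a (0.216) for miR-30c. For miR-30d they were miR-27b (0.182), miR-500 (0.203) and miR-17* (0.218), and for miR-30b they were miR-26a (0.176), miR-107 (0.199) and miR-361 (0.201). All 3 neighbors of each member lay closer to it than any other member did. MiR-192 and miR-194, near miR-30a, are among the hepatocyte markers given next.

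Markers of the cells in the graft moved on the same arrays. Of 5 hepatocyte miRNAs, 4 were tested (miR-122, miR-192, miR-194 and miR-148a), and 3, 4, 4 and 2 of them were called lower on the 4 days in turn, where the background was 6.8%, 17.5%, 18.4% and 14.6%. The log2 of their summed scaled signal, which weighs the brighter miRNAs most, lay from 4.91 to 5.16 in syngeneic grafts. It lay from 4.45 to 4.70 on day 5 and from 4.52 to 4.63 on day 8. Day 14 had 3.74 to 4.10 and day 100 had 4.54 to 4.80. MiR-215 was detected on 0 arrays. Of 7 leukocyte miRNAs, 6 were tested, and 6, 4, 6 and 3 were called higher on the 4 days, where the background was 18.4%, 23.3%, 27.2% and 16.5%, with miR-150 detected on 0 arrays. Of the 6, miR-155, miR-342-3p and miR-142-5p were detected on 10, 12 and 13 of 15 arrays. Detection on all 3 arrays of 1 group was enough for testing, so some of their comparisons include arrays without detection. Such a filter favors miRNAs that are high in 1 group. The log2 of the summed scaled signal of the 6 lay from -0.49 to 0.83 in syngeneic grafts. It lay from 1.68 to 3.06 on day 5 and from 1.28 to 1.51 on day 8. Day 14 had 1.71 to 2.15 and day 100 had 0.22 to 0.73. Of 3 erythroid miRNAs 2 were tested, among them miR-144, which was detected on 10 of 15 arrays. On the 4 days 1, 1, 1 and 0 were called higher, where the background was again 18.4%, 23.3%, 27.2% and 16.5%. On day 8 the other was called lower, as were 17.5% of all miRNAs, and the 2 log2 fold changes were 1.21 and -1.57. On day 100 they were 0.59 and -1.26, and neither was called. The log2 of their summed scaled signal lay from -0.74 to 0.28 in syngeneic grafts and from -0.55 to 1.30 in the allografts. Of 7 endothelial and stromal miRNAs 2 were tested and 0 were called on any of the 4 days by limma, where 0, 1, 0 and 1 had an unadjusted p under 0.05. The part of these markers in the miR-30 differences was not tested.

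The direction of the differences of miR-30a, miR-30b, miR-30c and miR-30d, on 1 or more days each, depended on the scaling between arrays, while miR-30e stayed below 0 on all 4 days under the 6 scalings tried. The 75th percentile used for scaling was 395 to 616 signal units on the syngeneic arrays and 457 to 1018 on the allogeneic ones. The unscaled signal of miR-30a was 584 to 1039 in syngeneic and 442 to 995 in allogeneic grafts. Without scaling 0 of 5 members were called in any comparison by limma, with 0, 2, 1 and 0 at an unadjusted p under 0.05 on the 4 days. On day 8 these were miR-30b, at 0.86, and miR-30e, at -0.69, and on day 14 it was miR-30d, at 0.71. The log2 fold changes of miR-30e without scaling were -0.05, -0.69, -0.36 and -0.43. The median of all 103 miRNAs was then 0.54, 0.69, 0.71 and 0.33. With the total signal of the tested miRNAs as the scale that median was 0.31, 0.83, 0.81 and 0.60. On this scale miR-30b and miR-30d were called higher on day 8 and day 14 and miR-30c on day 100, and miR-30e was called lower on day 8 (adjusted p = 0.0303), with -0.26, -0.52, -0.25 and -0.14 on the 4 days.

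**Figure D5:**
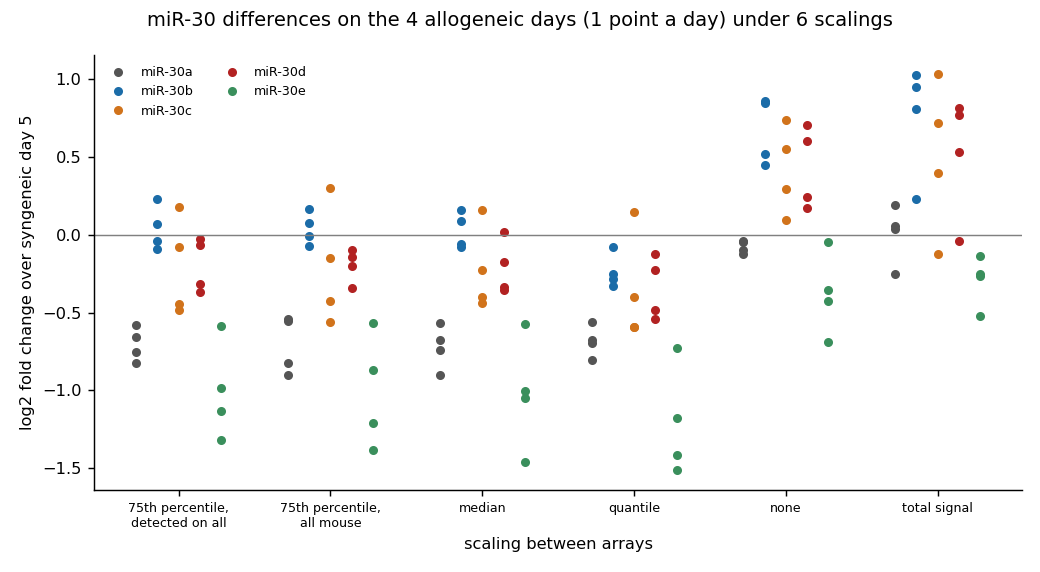
Log2 fold change over the syngeneic grafts under 6 scalings between arrays, 1 point per allogeneic day and member. MiR-30a lies from -0.13 to -0.04 without scaling and from -0.26 to 0.19 with the total signal, and miR-30e is below 0 under all 6.

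The arrays themselves differed. From 60 to 115 mouse miRNAs were detected per array, with no saturated spot. Day 100 replicate 1 had the fewest, and an additive error of 13.1 signal units where the other arrays had 2.67 to 3.66. Without this array miR-30a on day 100 stood at -0.70 (adjusted p = 0.00839) and miR-30e at -0.92 (adjusted p = 0.0294), and miR-30c on day 14 over day 100 was at -0.63 (adjusted p = 0.0268).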

How the data were processed

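MiRNAs were measured on Agilent mouse miRNA arrays in 15 mouse liver grafts, 5 groups of 3. The authors deposited, per array, the background-subtracted intensity of each spot as written by Feature Extraction 9.5.1.1, Agilent's software, per the file headers, not normalized between arrays, with detection flags. The deposited log2 value table was not used here. Student's t-test is the methods' test, and the sources used here name no normalization.

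Spot intensities were averaged per probe, without control and outlier spots, and summed over the probes of each miRNA. A share of 0.5 of the spots well above background made a probe detected. For scaling, 52 miRNAs found on every array gave the 75th percentile by which that array's signals were divided. A floor of 0.0270 was then set (-5.21 after log2). No member value was at the floor. The 103 miRNAs detected on all 3 arrays of a group were tested. limma (3.58.1, R 4.3.3) fitted 5 group means, with Benjamini-Hochberg adjustment within each comparison and intervals of 95%. The fit was tested on simulated data. P-values measure the spread between 3 mice a group. A permutation of 3 against 3 arrays cannot go below 0.1. Figures used Python 3.11.15 and matplotlib 3.10.9.

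Members and lists were chosen with earlier results of these data known. Named were the 5 members, the star strands, miR-384-5p, the 3 nearest miRNAs of each member and called miRNAs of a fibrosis and epithelial list. Alternatives were other scalings, probe summaries, filters and floors, normexp (offset 50), the groups compared alone, the methods' t-test, a mean trend in limma, a block for the replicate number or the slide, and each array left out. Scaling by total signal was added after the data were seen.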

Additional observations from a re-analysis of the deposited data

Results flagged for a closer look

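MiR-30c differed from the syngeneic grafts by unequal amounts on different allogeneic days, by a test between the days in limma. On day 14 it was lower than on day 100 by a log2 fold change of -0.66 (adjusted p = 0.00868), and lower on all 3 arrays. With the slide in the fit the value was -0.47 (adjusted p = 0.364), and over the alternatives it ran from -0.86 to -0.45, with adjusted p from 0.00208 to 0.364.

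On day 5 miR-30c was lower than on day 100 by -0.63 (adjusted p = 0.0190), again on all 3 arrays, which share a slide with those of day 100. Over the alternatives the value ran from -1.15 to -0.46, with adjusted p from 0.00513 to 0.252. Groups of 3 arrays are too small for an outlier test of single arrays, but each array was left out in turn. Without day 100 replicate 1 the value was -0.59 (adjusted p = 0.0532), and without day 5 replicate 1 it was -0.48 (adjusted p = 0.0808). This call thus depended on single arrays.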

How the results depend on the processing

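For single members and pairs, 45 results gave 1355 recomputed values over the alternatives. Of these 1245 kept their call and direction or stayed uncalled, 59 lost the call, 44 gained one and 7 reversed. Reversed means a change of sign with a call in the main fit or in the alternative. None of the 7 was called in both. The cause of these changes was not tested.

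Without scaling between arrays, the count of members called was 0 in every comparison and in the F test, and miR-30c on day 14 reversed to 0.29. With the 75th percentile over all mouse miRNAs it was 0 on day 5, on day 100 and in day 5 over day 100, and 1 in the F test. With the total signal of the tested miRNAs (added after the data were seen) it was 0 on day 5, 1 on day 100 and 0 in day 14 over day 100. Under that scale the reversed values of miR-30a were 0.039 (day 8), 0.056 (day 14) and 0.19 (day 100). That of miR-30c on day 14 was 0.40, and none of these was called. Those of miR-30d were 0.76 (day 8) and 0.81 (day 14), both called there and not in the main fit. The share of lower calls among all calls was 26.9% to 46.9% on the 4 days, 0% to 20.8% without scaling and 4.55% to 7.02% with the total signal. It was 10% on day 5 with the percentile over all miRNAs and 16% with the median scale. With quantile normalization 4 members were called on day 5, and that share was 40.9%. With normexp it was 66.7%, 70.8%, 80.8% and 71.4% on the 4 days, with the slide block 60% on day 5 and 87.5% on day 100, and with the software's total signal 60.5% on day 100.

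On day 5 the count was 0 with the brightest probe, with only the groups compared and with the methods' t-test after adjustment, 2 with the software's total signal, normexp, miRNAs detected on all arrays or the unadjusted t-test, and 3 with the mean log2 of the probes. On day 100 it was 1 with no filter and with the slide block, and 0 with only the groups compared and the adjusted t-test. It was 3, with miR-30d called too, with quantile normalization, the mean log2 of the probes, the software's total signal, miRNAs detected on all arrays and the unadjusted t-test. On day 14 the adjusted t-test gave 1. The percentile over all mouse miRNAs, the median scale, no filter, only the groups compared, the unadjusted t-test and the slide block gave 2, without miR-30c. In day 14 over day 100 the count was 2 with the mean log2 of the probes and with both t-tests, and 0 with no filter and with the slide block. In day 14 over day 8 the unadjusted t-test gave 1. In day 5 over day 100 it was 0 with the brightest probe, no filter and the adjusted t-test. Pairs that passed numbered 0 with quantile normalization, 4 with the mean log2 of the probes and 2 with normexp.

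Leaving out each array in turn gave counts of 1 to 3 on day 5, 2 on day 8, 2 to 3 on day 14, 2 on day 100, 0 in day 14 over day 8, 1 in day 14 over day 100, 0 to 1 in day 5 over day 100, 3 to 4 in the F test and 0 to 6 for the pairs. The day 5 count was 2 without any 1 syngeneic replicate and 3 without day 5 replicate 3. The pairs reached 5 without syngeneic replicate 1 and 6, 4 and 3 without day 5 replicate 1, 2 and 3.

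With replicate number as a block, the counts were 1, 2, 2 and 2 on day 5, day 8, day 14 and day 100, and miR-30c on day 14 stood at -0.48 (adjusted p = 0.0571). The numbers did not pair the samples: the correlation of deviations from the group means between arrays of the same number averaged -0.055 (from -0.65 to 0.45 over 30 pairs). With the slide as a block the median of all miRNAs moved to -0.09, 0.32, 0.23 and -0.17 on the 4 days.

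Precision is limited by 3 arrays a group, 1 type of control and the faint star strands. Members with similar sequences were not told apart beyond their probes.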

Other observations

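Of 12 miRNAs tied to fibrosis or the epithelial state, as the miR-30 family is, 11 were on the array and 5 were tested (miR-29a, miR-29b, miR-29c, miR-21 and miR-214). Over the syngeneic grafts 0 of 5 were called on day 5 by limma (1 at an unadjusted p under 0.05), 2 on day 8, 1 on day 14 and 3 on day 100, all lower. Of all miRNAs tested, 6.8%, 17.5%, 18.4% and 14.6% were called lower on these days. MiR-29b, known for repressing collagens, was at -1.08 on day 8 and -0.87 on day 100 (log2 fold change, adjusted p = 0.00437 and 0.0220). MiR-29c, of the same family, was at -0.62 on day 8, -0.77 on day 14 and -0.67 on day 100 (adjusted p = 0.0124, 0.00235 and 0.0142). These were the miRNAs nearest to miR-30e and miR-30a in profile. MiR-21, known to rise in injured liver, was at -0.75 on day 100 (adjusted p = 0.0220).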
